A study of Mus musculus with 6 samples.

Results

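The interferon-induced p200 family is a group of mouse genes that lie side by side on chromosome 1. It was followed here by gene name, and 9 of the 10 symbols on the list (Ifi203, Ifi204, Ifi206, Ifi207, Ifi208, Ifi209, Ifi211, Ifi213 and Mndal) each matched 1 of the 54532 gene rows. The remaining symbol, Mnda, was not analysed as a gene of its own, and RefSeq lists it as a synonym of Ifi211. All 9 genes had enough reads to be tested. The XCKO group held 3 hepatocyte libraries from Xbp1ΔHep mice, a name that marks a deletion of Xbp1 in hepatocytes. The XCON group held 3 hepatocyte libraries from Xbp1FL/FL mice, which carry floxed Xbp1 alleles. Both groups were C57BL/6 mice aged 32 to 34 weeks that had eaten a high-fat diet (HFD) for 26 weeks. XBP1 is a transcription factor that adapts cells to misfolded proteins in the endoplasmic reticulum, and the series asks what it does in steatohepatitis. Which Cre line was used, and which exons it removed, is not stated in the labels. No label ties a library to a mouse, so p-values reflect the spread between libraries, which may be technical.

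The proteins of this family are sensors and regulators of the innate immune response to DNA. Most carry a pyrin domain, which pairs with pyrin domains of other proteins, a HIN domain, which binds DNA, or both. Type I interferon induces many of the genes through the interferon-stimulated response element (ISRE), a short DNA sequence in their promoters. Macrophages and other immune cells express many of them. Ifi204 is the mouse relative of human IFI16, a DNA sensor of the nucleus and cytosol. Aim2, the best known relative, senses DNA in the cytosol and starts an inflammasome. The members were chosen by name, but also selected on their measured read counts in XCKO against XCON, so their values in these libraries are given as a description and not as a test.

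The members share a promoter element. RefSeq promoter windows (GRCm38.p6, 250 bases before the start of the gene) were found for 8 of the 9 members, in 10 windows, since Ifi203 and Mndal have an extra start each. Ifi204 had no entry. The ISRE was searched on both strands as GAAA, any 2 bases and GAAA again, and it stood in 8 of the 10 windows and in those of 7 members: Ifi203, Ifi206, Ifi207, Ifi208, Ifi211, Ifi213 and Mndal. The window of Ifi209 did not hold this pattern. Of all 32851 promoter windows of the same length, 2.98% held the motif. In 6 of the 7 members the motif read GAAATCGAAA, a form found in 13 of all windows. Neither TTCNNNGAA, the gamma-activated site (GAS), nor GACGTG, a core of XBP1-bound elements, stood in any of the 10 windows, against 7.02% and 5.20% of all windows. No window held more than 1 kind of these motifs, so none overlapped. The stretches below are shown because each holds the element and some pairs of genes share nearly all of the bases around it. Each runs 5′ to 3′ on the strand of its gene, with the ISRE in capitals.
Ifi203 (chr1:173942498-173942547, minus strand): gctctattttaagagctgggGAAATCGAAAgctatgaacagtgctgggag
Mndal (chr1:173880194-173880243, minus strand): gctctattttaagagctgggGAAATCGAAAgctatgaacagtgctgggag
Ifi208 (chr1:173673587-173673636, plus strand): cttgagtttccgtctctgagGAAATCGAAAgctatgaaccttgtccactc
Ifi213 (chr1:173599316-173599365, minus strand): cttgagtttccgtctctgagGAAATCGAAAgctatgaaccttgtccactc
Ifi206 (chr1:173491329-173491378, minus strand): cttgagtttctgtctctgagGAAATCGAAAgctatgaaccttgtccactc
Ifi207 (chr1:173741821-173741870, minus strand): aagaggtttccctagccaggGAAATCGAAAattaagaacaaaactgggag
Ifi211 (chr1:173913054-173913103, minus strand): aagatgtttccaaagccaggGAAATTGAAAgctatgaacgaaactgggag
Ifi205 (chr1:174031860-174031909, minus strand): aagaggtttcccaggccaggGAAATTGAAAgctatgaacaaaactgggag
The 50 bases of Ifi203 and Mndal were identical, as were those of Ifi208 and Ifi213, and Ifi206 matched Ifi208 and Ifi213 at 49 of 50 bases. Ifi205, a relative outside the list, matched Ifi211 at 46 of 50 bases. The least alike members were Ifi206 and Ifi207, at 24 of 50 bases. The 19 bases GAAATCGAAAgctatgaac stood in the windows of 5 members and in no other of the promoter windows searched. In the 7 stretches of members the element began between 35 and 73 bases before the RefSeq start of the gene. The gene rows used for counts place some starts elsewhere, at 173942491 for Mndal and 173942672 for Ifi203. The elements of these 2 genes thus lie inside their gene rows. A match of letters is a description of the promoter and does not show that a factor binds there.

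Libraries held 26477489 to 27240079 counts in XCKO and 23919355 to 26502456 in XCON, and members had between 12 and 1253 reads in a library. Values are in CPM, the count scaled to the size of its library, with TMM factors, which align libraries by the bulk of their genes. Xbp1 averaged 55.2 ± 14 CPM in XCKO and 261 ± 79 CPM in XCON (SD, n = 3 each), and each XCKO library was below each XCON library. Mitochondrial transcripts took 22.8% of the counts of XCON 1, against 8.99% to 13.1% in the other libraries, and red cell (globin) markers stood at 329, 14.8 and 825 CPM in XCKO and at 18.6, 9.13 and 13.8 CPM in XCON. Hepatocyte markers summed to 81905 to 111363 CPM in XCKO and 60121 to 80107 CPM in XCON, as the label of primary hepatocytes asks. Each XCKO library was above each XCON library in this sum. Most of it was Alb, at 70795 ± 14066 CPM in XCKO and 53754 ± 8248 CPM in XCON (SD, n = 3 each). Markers of macrophages and other liver cells were also present.

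The 4 most abundant members were lower in XCKO. Ifi203 (ENSMUSG00000039997), a HIN-domain gene, had 19.6, 9.47 and 14.6 CPM in XCKO 1, 2 and 3, against 33.7, 45.9 and 34.6 CPM in XCON 1, 2 and 3. The groups did not overlap, with a log2 fold change (XCKO over XCON) of −1.39 ± 0.26 (SE). Ifi207 (ENSMUSG00000073490) had 16.2, 5.90 and 10.5 CPM in XCKO, against 30.2, 39.7 and 36.4 CPM in XCON, a log2 fold change of −1.70 ± 0.33 (SE). Here too every XCKO library was below every XCON library. Mndal (ENSMUSG00000090272), named for its likeness to the myeloid nuclear differentiation antigen, had 13.8, 7.37 and 11.1 CPM in XCKO, against 25.9, 37.4 and 25.3 CPM in XCON, a log2 fold change of −1.46 ± 0.25 (SE). Ifi204 (ENSMUSG00000073489) had 14.6, 6.33 and 13.4 CPM in XCKO, against 26.2, 36.4 and 24.6 CPM in XCON, a log2 fold change of −1.34 ± 0.31 (SE). In all 4 genes XCKO 2 was the lowest library and XCON 2 the highest.

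The other 5 members were less abundant, and 4 of them, all but Ifi211, had log2 fold changes larger in size than those of the 4 abundant members. For Ifi208 this held only narrowly against Ifi207, and with limma-voom, another method, the order was reversed (−1.78 for Ifi208, −1.82 for Ifi207). Ifi206 (ENSMUSG00000037849) had 46, 22 and 23 reads in XCKO, against 110, 245 and 122 reads in XCON. That is 1.24 ± 0.55 CPM in XCKO and 5.78 ± 2.8 CPM in XCON (SD, n = 3 each), with the largest log2 fold change among the members, −2.22 ± 0.43 (SE). Ifi209 (ENSMUSG00000043263), which RefSeq also lists as Pyhin1, had 82, 18 and 85 reads in XCKO, against 305, 412 and 245 reads in XCON. XCKO 2 stood far below the other XCKO libraries in this gene, at 0.699 CPM against 3.32 and 3.67 CPM, and the log2 fold change was −2.19 ± 0.54 (SE). Ifi213 (ENSMUSG00000073491), also listed as Pydc4 after its pyrin domain, averaged 2.56 ± 1.3 CPM in XCKO and 9.82 ± 3.6 CPM in XCON (SD, n = 3 each), a log2 fold change of −1.93 ± 0.40 (SE). Ifi211 (ENSMUSG00000026536) averaged 2.05 ± 0.67 CPM in XCKO and 6.37 ± 3.3 CPM in XCON (SD, n = 3 each), a log2 fold change of −1.64 ± 0.42 (SE). Its groups did not overlap, but the highest XCKO library reached 2.77 CPM and the lowest XCON library 3.69 CPM. Ifi208 (ENSMUSG00000066677), also listed as Pydc3, was the least abundant, with 38, 13 and 12 reads in XCKO, against 40, 127 and 72 reads in XCON. Its groups touched: XCKO 1 and XCON 1 both had 1.54 CPM, and in the deposited FPKM values XCKO 1 was above XCON 1. The log2 fold change of Ifi208 was −1.75 ± 0.57 (SE).

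**Figure D1:**
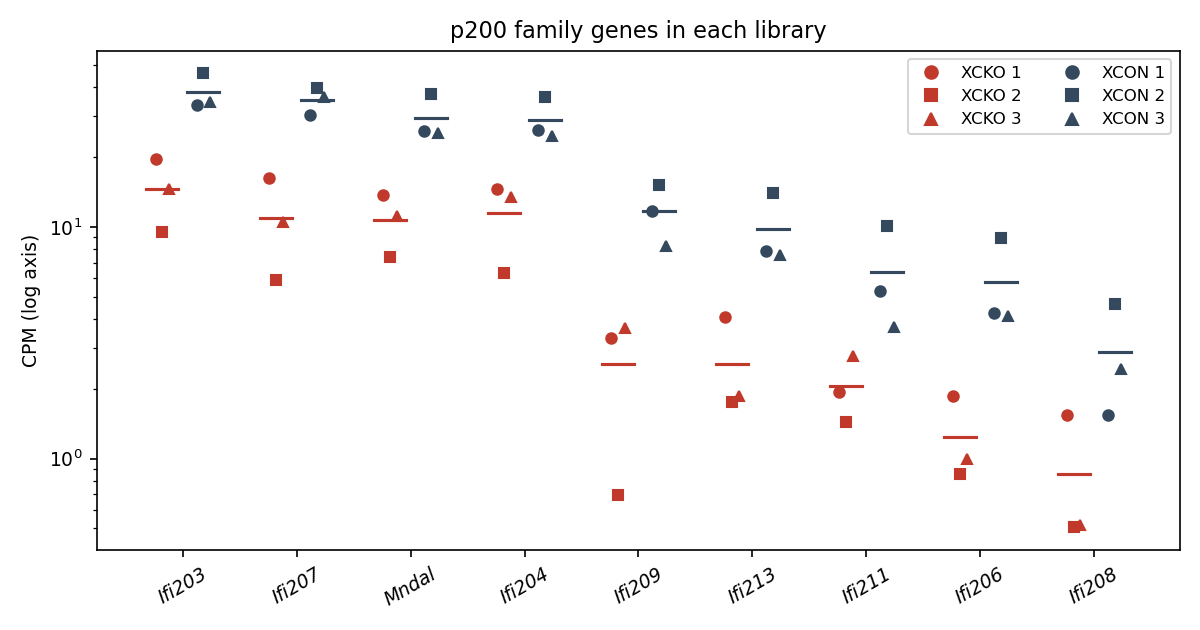
Expression of the 9 p200 members in each library, in CPM on a log axis, with XCKO in red left of XCON in grey; symbols mark the replicate number and bars the mean of 3 libraries. XCKO 2 (red squares) was the lowest and XCON 2 (grey squares) the highest library in 9 of 9 members.

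Across the family, the XCKO mean was 21.4% to 39.4% of the XCON mean. In CPM every XCKO library was below every XCON library in 9 of 9 members, a pattern that 18.1% of the 14873 tested genes showed in this direction, and in FPKM in 8 of 9. With edgeR's quasi-likelihood test and p-values adjusted over all genes, 8 of the 9 were lower past 0.05, all but Ifi208, where 4.05% of all tested genes were lower past it and 9.27% were called in either direction. DESeq2 had 9 of 9 lower, where 7.81% of 14878 genes were. The authors' deposited table also had 9 of 9 lower, where 4.66% of 24709 genes were. Its log2 fold changes of the members equal those of DESeq2, so it is not a separate result. A replicate block in edgeR left 0 of 9, where 0.686% of all genes were lower, with 9 of 9 at an unadjusted p under 0.05, as 13.9% of all genes were. With library totals alone all 9 were lower, where 13.7% of all genes were, and with a gene length correction 7, where 2.88% were. Nothing is read from these counts, because the list was made with this contrast known. The median log2 fold change was −1.70 over the members and −0.05 over all tested genes. Fold changes are relative to TMM scaling. Library totals alone move the median of all genes to −0.31 and that of the members to −1.98. The number of members past 0.05 was 5, 6 and 0 without XCKO 1, 2 and 3 and 3, 1 and 5 without XCON 1, 2 and 3, while calls of lower genes over the whole table numbered 278, 287 and 131, and 201, 245 and 269, against 603 with all libraries. Without XCKO 3, where edgeR called 0 members, 8 were lower at an unadjusted p under 0.05, as 12.4% of all genes were, and log2 fold changes ran from −2.52 to −1.36. Over the 6 fits without 1 library, log2 fold changes ran from −2.63 (Ifi206 without XCKO 1) to −0.997 (Ifi204 without XCKO 2), so each member was lower in every fit.

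**Figure D2:**
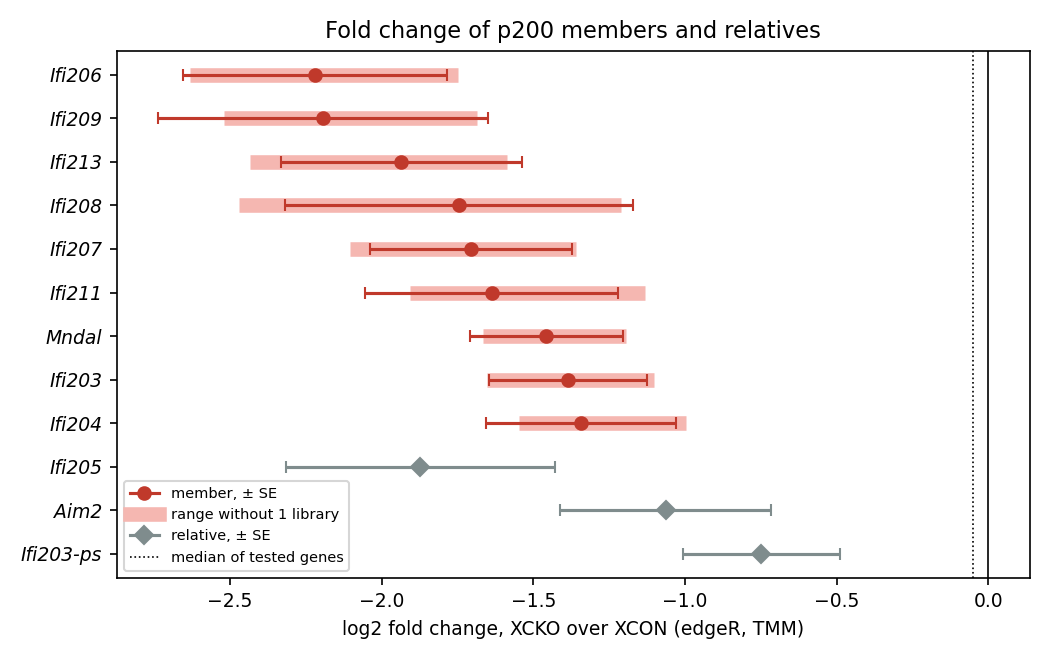
Log2 fold change, XCKO over XCON, of the 9 members (red circles) and 3 tested relatives (grey diamonds), with bars for 1 SE. Pale bands span the fits that leave out 1 library, and the dotted line is the median of all tested genes at −0.05; every member's band lies below 0.

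Levels between genes can be compared only per gene length, for which the deposited FPKM values were used. In XCKO the order by mean FPKM was Ifi204, Ifi207, Mndal, Ifi203, Ifi211, Ifi209, Ifi206, Ifi213 and Ifi208, from 3.23 ± 1.3 to 0.162 ± 0.11 FPKM (SD, n = 3 each), and each neighbour in that order overlapped the next over its 3 libraries. In XCON the order was Ifi207, Ifi204, Mndal, Ifi203, Ifi211, Ifi209, Ifi206, Ifi213 and Ifi208, from 10.1 ± 1.3 to 0.531 ± 0.29 FPKM (SD, n = 3 each). There the ranges overlapped between all neighbours but Mndal and Ifi203, at 6.92 to 9.87 and 4.87 to 6.56 FPKM, and Ifi213 and Ifi208, at 1.10 to 1.96 and 0.284 to 0.849 FPKM. The top of the order thus differed between the groups by a swap of Ifi204 and Ifi207, whose ranges overlapped in both.

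Reads of the 9 members together came to 1901, 884 and 1376 in XCKO 1, 2 and 3 and to 3812, 5789 and 4349 in XCON 1, 2 and 3. Fitted as 1 row, the sum had a log2 fold change of −1.57 ± 0.30 (SE), a value that does not depend on how reads were divided among the 9 members. The make-up of the sum differed less than its size. Ifi203 gave 25.9 ± 1.6% of the reads in XCKO and 22.7 ± 0.95% in XCON (SD, n = 3 each), and Ifi207 gave 18.6 ± 2.1% in XCKO and 21.4 ± 3.1% in XCON. Ifi206 gave 2.19 ± 0.45% in XCKO and 3.31 ± 0.80% in XCON, and Ifi209 gave 4.18 ± 2.1% in XCKO and 6.92 ± 1.2% in XCON. Ifi204 gave 18.4% to 22.6% across the XCKO libraries and 16.8% to 17.8% across the XCON libraries, and Mndal gave 19.4 ± 1.9% in XCKO and 17.5 ± 0.24% in XCON. The shares of Ifi203, Ifi204 and Mndal were higher and that of Ifi206 lower in XCKO without overlap between the groups, whereas those of the other 5 members overlapped.

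How well reads can be told apart varied between members. In GENCODE M21 transcripts, 72.8% of the distinct 50-base windows of Ifi211 also occurred in another gene of the family, most of them in Ifi205, and at 100 bases 56.9% did. For Ifi209 the share was 33.4% at 50 bases, all of it with Ifi214. For Ifi208, Ifi204, Mndal, Ifi206, Ifi213 and Ifi203 it lay between 20.8% and 12.2%, and Ifi207 had the lowest share among the members, 5.39%. The labels state neither the read length nor what was done with reads that match several genes, so Ifi211 and Ifi209 are the least certain members and Ifi207 the most distinct. Mndal also spans Ifi211 and most of Ifi203 on the same strand, but its exons share only 37 bases with those of Ifi203. Without Ifi203 and Mndal, the summed log2 fold change was −1.68 ± 0.33 (SE).

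The members lie within 474 kb of chromosome 1 (GRCm38, bases 173468485 to 173942672), and relatives outside the list stand among and beside them. Ifi205 (chromosome 1, 174011998 to 174031810), known in mouse macrophages as a regulator of the inflammasome adaptor gene Asc, fell in XCKO, with 31, 13 and 25 reads, against 61, 136 and 91 reads in XCON. The log2 fold change of Ifi205 came to −1.87 ± 0.44 (SE), and edgeR gave an adjusted p of 0.035, but it passed in 0 of the 6 fits without 1 library, where the largest adjusted p was 0.11 (without XCON 2). Aim2 had 2.73 ± 1.1 CPM in XCKO and 5.70 ± 1.5 CPM in XCON (SD, n = 3 each), a log2 fold change of −1.06 ± 0.35 (SE) at an edgeR adjusted p of 0.083, and all its XCKO libraries were below its XCON libraries. The pseudogene Ifi203-ps had 3.62 ± 1.0 CPM in XCKO and 6.09 ± 0.74 CPM in XCON (SD, n = 3 each), at an edgeR adjusted p of 0.097, and it shares 26.3% of its 50-base windows with other genes of the family. Aim2 shares none. With library totals alone both were lower past the threshold in edgeR, at adjusted p-values of 0.026 for Aim2 and 0.035 for Ifi203-ps. Aim2 also passed in edgeR with no filter on low counts (adjusted p 0.026) and in DESeq2 (adjusted p 0.040). Aim2 did not pass in any edgeR fit without 1 library, where adjusted p-values ran from 0.077 to 0.23. Nor did it pass with the replicate block in edgeR (adjusted p 0.15) or in limma-voom (adjusted p 0.072). Ifi214 had 0 reads in the XCKO libraries, where a count of 0 allows up to 3, against 6, 8 and 4 reads in XCON, and fell under the filter on low counts. In edgeR with no such filter it was lower at an adjusted p of 0.044, and DESeq2 gave it no adjusted p. Ifi202b, whose protein inhibits Aim2, had 0 reads in all 6 libraries. In the surrounding window, 300 kb to either side, 30 genes are neither members nor relatives, many of them olfactory receptor genes, and 22 had no read. The 2 of them that could be tested, the adhesion gene Cadm3 and the chemokine scavenger gene Ackr1, did not pass in edgeR's test (adjusted p 0.72 and 0.44), with log2 fold changes of −0.21 and −0.51.

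**Figure D3:**
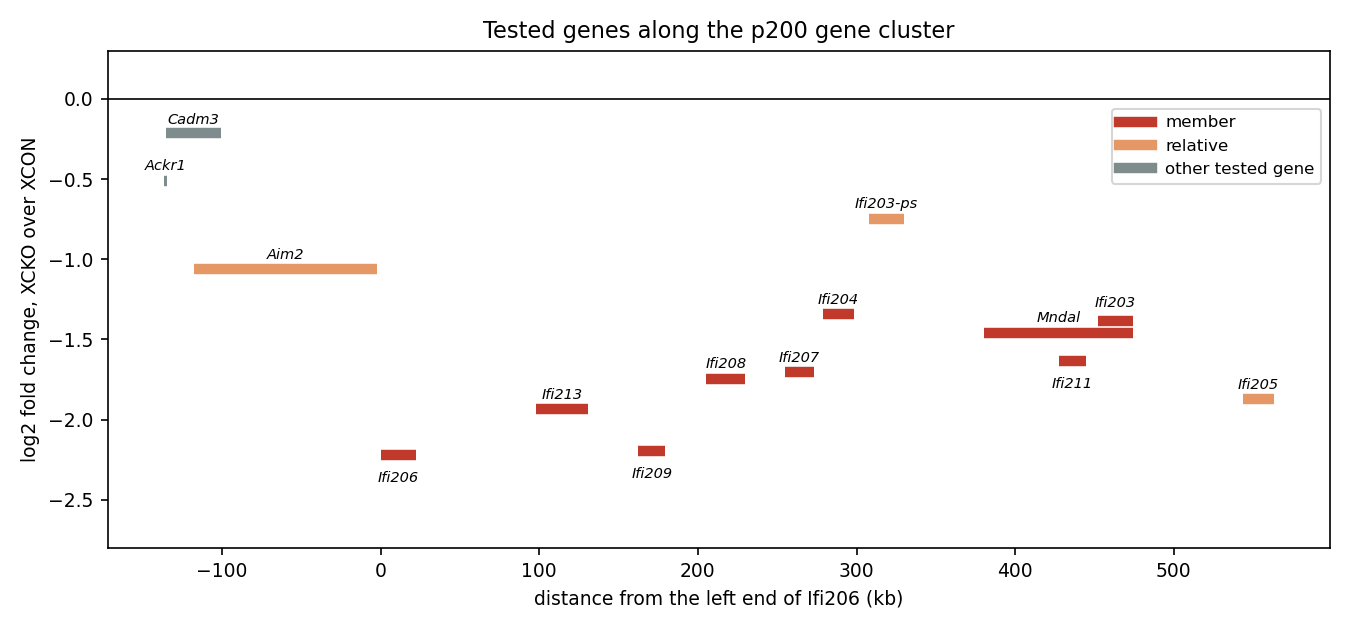
Tested genes of the p200 cluster and its flanks, drawn from start to end by distance in kb from the left end of Ifi206, at the height of their log2 fold change, XCKO over XCON. The members (red) run from −2.22 at Ifi206 to −1.34 at Ifi204, the relatives (orange) from −1.87 at Ifi205 to −0.75 at Ifi203-ps, and the other tested genes (grey) are Cadm3 at −0.21 and Ackr1 at −0.51.

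Many other interferon-stimulated genes fell in XCKO too. This list and those that follow were also chosen with earlier results of these data known, so their counts are a description and not a test. Of 29 tested interferon-stimulated genes outside the family, 0 were higher, 19 lower and 10 did not pass, beside the 5.21% higher and 4.05% lower of all tested genes. At an unadjusted p under 0.05, 0 were higher and 24 lower, beside 14.3% higher and 15.4% lower of all tested genes. DESeq2 and limma-voom called 0 higher, with 22 and 19 lower, beside 7.81% and 4.16% lower of all tested genes. Their median log2 fold change was −0.98, smaller in size than that of the members. Oas2, which makes the activator of RNase L, averaged 4.36 ± 2.0 CPM in XCKO and 17.8 ± 5.6 CPM in XCON (SD, n = 3 each), a log2 fold change of −2.03 ± 0.35 (SE). Oas3 of the same enzyme family (−2.46), Ifit2, which blocks translation of viral RNA (−1.62), and Ddx58, the RNA sensor RIG-I (−0.77), also fell, and the edgeR adjusted p-values of the 4 lay between 0.016 and 0.021. Each of the 4 lost its call without XCKO 3, with edgeR adjusted p-values of 0.055 to 0.076, and Oas3 also without XCKO 2. The number of lower genes on this list was 11, 6 and 0 without XCKO 1, 2 and 3 and 11, 4 and 8 without XCON 1, 2 and 3. Without XCKO 3, 22 were lower at an unadjusted p under 0.05, beside 12.4% of all genes tested in that fit.

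Of 18 tested genes of interferon signalling, 0 were higher, 1 lower and 17 did not pass, a share of lower genes near the 4.05% of all tested genes. Usp18, a brake on the type I interferon receptor and itself interferon-induced, had 5.41 ± 0.56 CPM in XCKO and 10.3 ± 0.20 CPM in XCON (SD, n = 3 each), and its edgeR adjusted p was 0.021. It kept its call only without XCKO 2 (largest adjusted p 0.068, without XCKO 3). The receptor genes Ifnar1 and Ifnar2 had log2 fold changes of −0.24 and 0.24, neither past the test. At an unadjusted p under 0.05, 0 genes of this list were higher and 9 lower, beside 14.3% and 15.4% of all tested genes. DESeq2 called 0 higher and 2 lower of the 19 it tested, where 7.81% of all its genes were lower. Interferon beta (Ifnb1) had no read. Of 15 tested genes of DNA sensing and inflammasomes, 0 were higher, 1 lower and 14 did not pass, beside 5.21% higher and 4.05% lower of all tested genes. At an unadjusted p under 0.05, 0 were higher and 5 lower, beside 14.3% and 15.4% of all tested genes. DESeq2 called 0 higher and 4 lower, where 7.81% of all its genes were lower. The gene lower in edgeR's test was Ikbke, a kinase that activates interferon regulatory factors. Ikbke had 10.4 ± 0.55 CPM in XCKO and 48.0 ± 9.2 CPM in XCON (SD, n = 3 each). Its edgeR adjusted p was 0.0015, and it passed in 6 of 6 fits without 1 library. The genes of the DNA sensor cGAS (Mb21d1) and its adaptor STING (Tmem173) had log2 fold changes of −1.10 ± 0.56 and −0.53 ± 0.41 (SE), and Pycard, the inflammasome adaptor ASC, had −0.47 ± 0.38 (SE), none past the test. With library totals alone, 8 signalling and 6 DNA-sensing genes were lower, beside 13.7% of all tested genes.

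Macrophage markers had a lower summed level in each XCKO library than in each XCON library, as the members did. The median log2 fold change of these markers was −0.995, close to the −0.98 of the interferon-stimulated genes. Only 1 of the markers passed the test, where 4.05% of all tested genes were lower. Of 18 macrophage markers, 0 were higher, 1 lower (Cd68, which lost its call without XCKO 1, XCON 1 or XCON 2) and 17 did not pass in edgeR's test, 9 of the 18 were lower without overlap between the groups, beside 18.1% of all tested genes, and none was at 0. They summed to 1618, 745 and 1803 CPM in XCKO 1, 2 and 3, against 2468, 3464 and 1924 CPM in XCON 1, 2 and 3. XCKO 2 was thus the lowest and XCON 2 the highest library for these markers, as for each p200 member, while XCKO 3 was the highest XCKO library for the markers and XCKO 1 for 7 of the 9 members. Per 100 CPM of macrophage markers, the members had 4.76, 4.61 and 3.30 CPM in XCKO, against 5.94, 6.13 and 7.64 CPM in XCON. Dendritic cell markers summed to 13.3 to 28.4 CPM in XCKO and 35.2 to 51.2 CPM in XCON, with 1 of 7 lower past the test (Clec9a, which passed in 0 of the 6 fits without 1 library). B cell markers summed to 16.5 to 38.0 CPM in XCKO and 30.6 to 111 CPM in XCON, and T and NK cell markers to 1.47 to 7.35 CPM in XCKO and 3.25 to 17.4 CPM in XCON, with 0 of 6 and 0 of 8 past the test. Neutrophil markers summed to 5.59 to 72.2 CPM in XCKO and 15.3 to 37.5 CPM in XCON, with 0 of 5 past the test. They differed in direction, with log2 fold changes of 2.48 for S100a8 and 1.84 for S100a9. Those of Csf3r, Cxcr2 and Retnlg were −1.52, −1.29 and −0.63. Endothelial markers summed to 481 to 954 CPM in XCKO and 646 to 669 CPM in XCON, with 0 of 10 past the test. Stellate markers summed to 118 to 297 CPM in XCKO and 290 to 596 CPM in XCON, with 2 of 9 lower (Pdgfrb, which passed in 3 of the 6 fits without 1 library, and Lrat, which passed in 1), and cholangiocyte markers to 82.5 to 162 CPM in XCKO and 251 to 583 CPM in XCON, with 0 of 5 past the test. None of these lists had a marker at 0 in all 6 libraries. Most of the cholangiocyte sum was Spp1, at 103 ± 46 CPM in XCKO and 345 ± 189 CPM in XCON (SD, n = 3 each). The log2 fold change of Spp1, −1.74, is also the median of that list. Spp1 and Krt7 were lower without overlap between the groups, whereas Krt19, Epcam and Sox9 overlapped. Median log2 fold changes were −0.98 for dendritic cell, −0.93 for B cell, −1.31 for T and NK cell and −0.63 for neutrophil markers. They were 0.09 for endothelial, −0.96 for stellate and −1.74 for cholangiocyte markers. Hepatocyte markers had a median of 0.40, with 1 of 8 higher past the test and 0 lower, where 5.21% of all tested genes were higher. The higher marker was Asgr1 (log2 fold change 0.95), which passed in 3 of the 6 fits without 1 library. In bulk RNA, fewer cells of a type and less RNA per cell cannot be told apart, and the part of other cell types in the p200 differences was not tested.

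**Figure D4:**
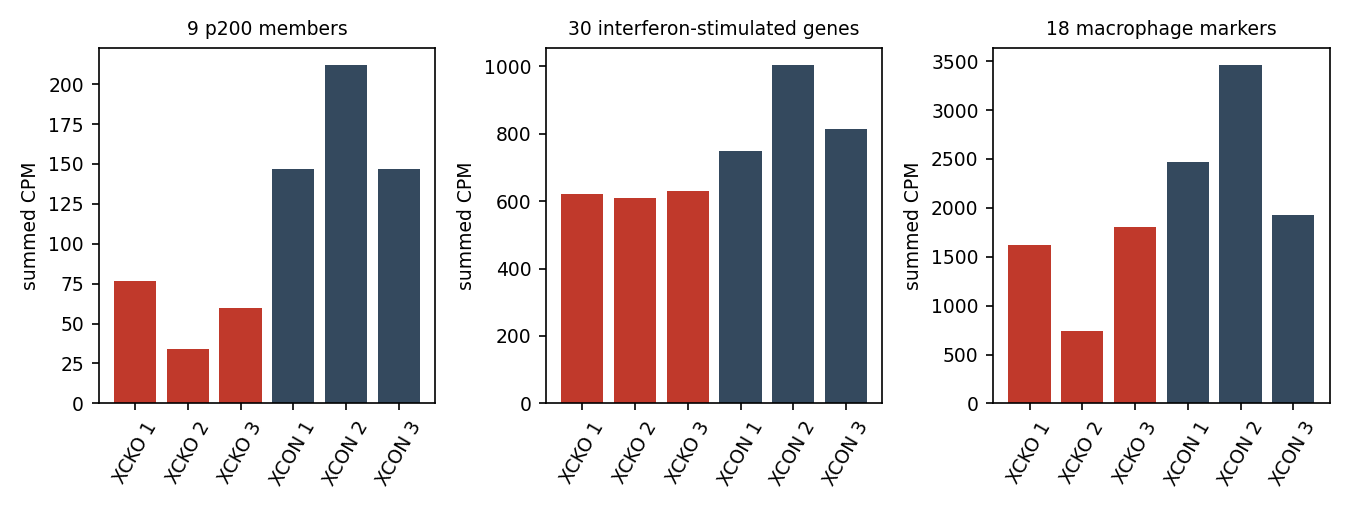
Summed CPM in each library of the 9 p200 members, 30 interferon-stimulated genes and 18 macrophage markers, with XCKO bars in red left of XCON bars in grey. For the members and the macrophage markers XCKO 2 is lowest (34.3 and 745 CPM) and XCON 2 highest (212 and 3464 CPM). The interferon-stimulated genes sum to 610 to 629 CPM across XCKO and 749 to 1005 CPM across XCON. A large part of that sum is Bst2 (log2 fold change 0.12), at 241, 253 and 295 CPM in XCKO 1, 2 and 3. In XCON 1, 2 and 3 Bst2 has 225, 272 and 229 CPM, so the even XCKO sums do not describe each gene.

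The members also varied together from library to library. Over the 6 libraries, Pearson's r between the log2 CPM of 2 members ran from 0.794 to 0.997 over the 36 pairs, with a median of 0.951, which includes the difference between the groups and any reads they share. Among 9751 other genes with a mean of at least 5 CPM, those most alike to the mean standardised profile of the members were Frmd4a (r = 0.998), Gbp4 (0.995), Tbc1d1 (0.994), Gbp9 (0.994), Tpp1 (0.994), Filip1l (0.992), Cnbd2 (0.992) and Ano6 (0.991). Gbp4 and Gbp9 encode guanylate-binding proteins, interferon-induced GTPases, and overlap each other on chromosome 5, so their counts are uncertain. Tpp1 encodes a lysosomal protease, Tbc1d1 a regulator of glucose transporter traffic and Ano6 a lipid scramblase. Gbp4 averaged 3.86 ± 1.1 CPM in XCKO and 9.62 ± 2.9 CPM in XCON, and Tpp1 averaged 127 ± 12 CPM in XCKO and 176 ± 13 CPM in XCON (SD, n = 3 each). With 6 libraries in 2 groups, such values of r describe these libraries and are given with no test.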

How the data were processed

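RNA from isolated hepatocytes was extracted with Trizol and made into NEBNext Ultra libraries, per the labels' protocols. The authors deposited raw read counts per Ensembl gene, FPKM values, group means on a normalized signal scale, log2 fold changes and p-values. Bowtie 0.12.2 and 2 builds, mm10 and mm8, stand in the submitters' processing notes with no roles. Neither the read counter nor whether it used strand is stated in the labels. Gene positions of the p200 rows equal those of GENCODE M21 (GRCm38). Counts were tested with edgeR 4.0.16 in R 4.3.3 (TMM, filterByExpr, robust quasi-likelihood F test on group over 6 libraries, Benjamini-Hochberg adjustment over 14873 genes, threshold 0.05). The biological coefficient of variation was 25.8%. Each SE was derived from the log2 fold change and its F statistic. In the authors' deposited table all 9 members are lower, with log2 fold changes of −2.18 to −1.30.

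The members and gene lists were chosen with earlier results of these data known. All members and relatives are named, then up to 4 genes with the smallest p among those past 0.05 per pathway list, and the 8 genes most alike over 6 libraries. A few pathway genes and markers were named after their values were seen. Alternatives were DESeq2 1.42.0, limma-voom (limma 3.58.1), other scalings and filters, a replicate block, a length correction and leaving out each library. Scripts were tested on simulated counts. Counting error alone limits genes with few reads.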

Additional observations from a re-analysis of the deposited data

How the results depend on the processing

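Each p200 member was lower in XCKO in all alternatives that tested it. Over the whole table, 775 genes were higher and 603 lower. With library totals alone these were 326 and 2032, with no filter on low counts 1185 and 975, with DESeq2 1381 and 1162, and with the replicate block 220 and 102. Without 1 library, 178 to 523 genes were higher and 131 to 287 lower. Of the members, 8 were lower past 0.05, 0 with the replicate block in edgeR (9 at an unadjusted p under 0.05, as 13.9% of all genes were), and 0 to 6 without 1 library. The summed log2 fold change of −1.57 was −1.61 with the replicate block, where its call was lost, and −1.84 to −1.26 without 1 library, with its call lost without XCKO 3, XCON 1 or XCON 2. The labels do not say whether replicate numbers pair the libraries. Deviations of same-numbered libraries from their group means correlated at 0.055, 0.076 and −0.168 over genes, and those of differently numbered libraries at −0.158 to 0.106. Deviations from a mean of 3 libraries are tied to each other, so these values cannot show whether libraries were paired. The sums with relatives (−1.52) and without Ifi203 and Mndal (−1.68) were added after seeing the data. Of the 19 lower interferon-stimulated genes outside the family, 2 were lower with the block. The cause of these changes was not tested. Ifi208, with 12 or 13 reads in some libraries, was past 0.05 in DESeq2, with library totals and with no filter. With no filter, however, Ifi207 and Ifi209 lost their calls, at edgeR adjusted p-values of 0.053 and 0.18. Ifi209 also lost its call in edgeR with the size factors of DESeq2 (adjusted p 0.053) and with the gene length correction (adjusted p 0.059). Ifi211 lost its call in limma-voom (adjusted p 0.072).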
